A study of Rattus norvegicus with 24 samples.

Results

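Liver RNA levels of 38 mitotic spindle and division genes were described across 24 male RccHan Wistar rats. The genes were chosen by name, as 38 symbols of the mitotic machinery out of 22093 genes with a probe set of 1 annotated symbol. Earlier results of these data were known at that choice, so the shares over all genes given below are descriptive and do not test the set. For each gene the probe set with the highest mean over the 24 arrays was used, and all 38 genes were measured and passed the filter on dim values in 24 of 24 arrays. Rats were 7 to 8 weeks old when assigned and were dosed by gavage with 800 mg/kg metformin or with vehicle alone for 1, 3 or 14 days. Metformin is a biguanide that lowers blood glucose, and the vehicle was a mixture of ethanol, Kolliphor HS 15 and tap water without metformin (0 mg/kg). The 6 groups were metformin and control livers of each of those days, with 4 rats each and 1 Affymetrix array per rat, whereas the study's design states 5 animals per group. Each day had its own rats, so dosing time, the age of the rats and any batch of necropsy or hybridisation that goes with the day cannot be told apart in comparisons between days. Pieces of whole liver were used, so fewer dividing cells and less RNA per cell cannot be told apart either.

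A dividing cell switches on a common programme late in its cycle. Cyclins A and B activate the kinase CDK1, kinesins and microtubule proteins build the spindle, kinetochore proteins tie chromosomes to it, the spindle checkpoint holds the cell until all are attached, and the anaphase-promoting complex then destroys cyclin B and lets the sister chromatids part. Most hepatocytes of an adult liver rest outside the cycle and re-enter it after loss of tissue, so these transcripts are commonly read as a measure of how many liver cells divide.

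The values are log2 of the deposited intensities, whose median per array over all probe sets lay between 4.80 and 5.11. Errors beside log2 differences are standard errors of a linear model (limma) over all 24 arrays with 1 mean per group. That model gives each gene 1 spread shared by the 6 groups, so the errors are alike in both arms. P values were adjusted by the Benjamini-Hochberg method over 19686 genes, and a gene with an adjusted p under 0.05 was called. The number of arrays limits the precision, and folds hold on the deposited scale. The summed level of 11 hepatocyte markers lay between 22.27 and 22.46 log2 units in all 24 arrays, so the tissue label and the markers matched in level. These markers read near the top of the scale, so their small spread between arrays tells little.

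The whole set was lower on day 14 in both arms. Between day 1 and day 14, 38 of 38 genes were called lower in metformin livers, against a background of 8.81% of all tested genes. In control livers 38 of 38 were called lower, against a background of 1.56%. By direction alone, 45.6% of all tested genes in metformin livers and 44.3% in control livers were lower on day 14. The median log2 difference over the 38 genes was -2.06 in metformin livers and -2.20 in control livers, while the median over all 19686 tested genes was 0.02 in each arm. Folds ranged from 1.53-fold to 17.6-fold lower in metformin livers and from 1.5-fold to 28.4-fold lower in control livers. A fall of more than 4-fold was estimated for 20 genes in metformin livers and for 24 in control livers. On day 14 the means of 5 of 38 genes in each arm lay below 4.92, the median of all log2 values (Aurkb, Bub1b, Melk and Ttk in both arms, Cenpf in metformin livers and Cep55 in control livers), whereas 0 did on the earlier days. Other genes ended only a little above that level, such as Cdk1 with a mean of 5.00 in control livers. The median of the 38 day 14 means was 5.42 in metformin livers and 5.30 in control livers. At such dim levels array differences can be compressed, so the folds of these genes, and of others that ended near this level, may be too small. No source explains the scale of the deposited values, so how it affects the size of the folds is not known. The metformin and control rats of day 14 against day 1 share no array, so these are separate measurements of the same interval.

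Against day 3, 37 of 38 genes in metformin livers and 34 of 38 in control livers were called lower on day 14. The background was 3.98% of all tested genes in metformin livers and 0.757% in control livers. The median log2 difference over the 38 genes was -2.05 in metformin livers and -1.75 in control livers. The single gene outside the call in metformin livers was Foxm1, and those outside it in control livers were Foxm1, Bub1b, Cep55 and Melk. Leaving out 1 array at a time gave 27 to 37 called genes in control livers, the lowest without replicate 3 of the day 3 controls, and 37 to 38 in metformin livers.

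The separation held rat by rat. All 8 arrays of day 14 lay below all 16 arrays of days 1 and 3 in 38 of 38 genes, an arrangement found in 188 of the 19686 tested genes (0.955%). Within single comparisons, no value of day 14 overlapped the earlier day in 38 of 38 genes. The share of all tested genes with such a separation was 9.51% for metformin livers against day 1, 5.75% against day 3, 4.12% for control livers against day 1 and 4.07% against day 3. The genes also stood high among the falls of the whole array, with 28 of the 100 largest in metformin livers and 31 of the 100 largest in control livers between day 1 and day 14. Over all genes, 1735 were called lower in metformin livers and 308 in control livers over this interval, and 253 were called in both, which is 14.6% of the metformin list and 82.1% of the control list.

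**Figure D1:**
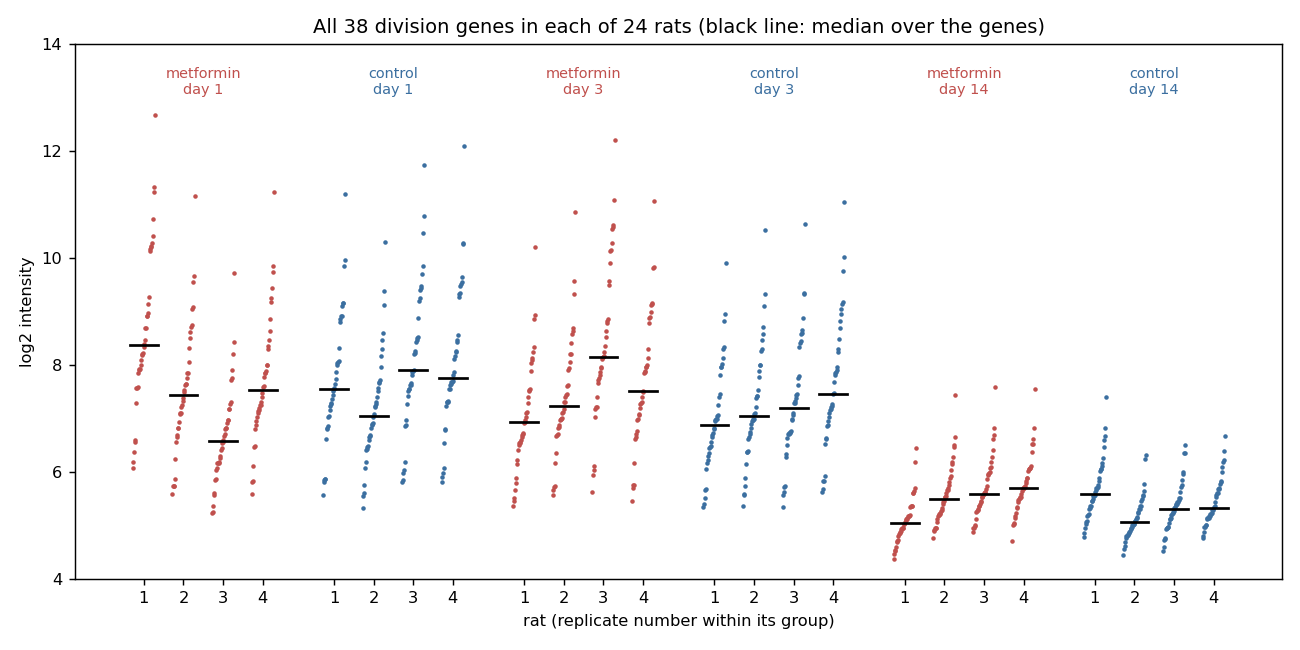
Log2 intensity (vertical axis) of the 38 division genes in each of 24 rats (horizontal axis, grouped by arm and day); each point is 1 gene, sorted by level within the rat, and the black line is the median over the genes. The lines of the 8 day 14 rats lie between 5.05 and 5.69, below the lowest of the 16 earlier rats at 6.57.

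Promoters of the genes that moved together were examined for letters known from cell cycle genes. In human and mouse cells, promoters of late cell cycle genes commonly carry a cell cycle homology region (CHR), which the LIN54 subunit of the MuvB and DREAM complexes contacts, and CCAAT boxes, which bind the trimeric factor NF-Y. RefSeq windows (build GRCr8, 250 bases before to 50 bases after the annotated start) were matched by symbol for 32 of the 38 genes. The 6 genes without a window were Tpx2, Aurkb, Ccna2, Racgap1, Foxm1 and Ube2c. The windows of 5 genes with values given below are shown 5′ to 3′ along the gene, with CHR letters (TTTGAA or TTCGAA) and CCAAT letters, read on either strand, in capitals. In the Mki67 window 1 CHR and 1 CCAAT overlap.

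Mki67, chr1:199952544-199952843, minus strand: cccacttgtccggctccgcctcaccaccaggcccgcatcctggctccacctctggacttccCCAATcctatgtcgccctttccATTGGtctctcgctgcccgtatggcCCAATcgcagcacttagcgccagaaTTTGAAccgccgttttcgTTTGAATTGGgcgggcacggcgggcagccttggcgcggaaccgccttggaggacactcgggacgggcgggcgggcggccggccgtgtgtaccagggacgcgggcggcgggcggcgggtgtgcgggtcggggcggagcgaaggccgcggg

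Top2a, chr10:84473044-84473343, minus strand: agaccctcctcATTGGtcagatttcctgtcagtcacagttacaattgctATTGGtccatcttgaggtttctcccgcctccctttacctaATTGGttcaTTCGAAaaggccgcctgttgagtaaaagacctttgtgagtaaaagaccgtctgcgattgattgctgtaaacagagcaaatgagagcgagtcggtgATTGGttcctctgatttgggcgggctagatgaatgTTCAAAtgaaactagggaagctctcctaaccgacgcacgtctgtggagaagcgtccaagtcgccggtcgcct

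Cdk1, chr20:19265043-19265342, plus strand: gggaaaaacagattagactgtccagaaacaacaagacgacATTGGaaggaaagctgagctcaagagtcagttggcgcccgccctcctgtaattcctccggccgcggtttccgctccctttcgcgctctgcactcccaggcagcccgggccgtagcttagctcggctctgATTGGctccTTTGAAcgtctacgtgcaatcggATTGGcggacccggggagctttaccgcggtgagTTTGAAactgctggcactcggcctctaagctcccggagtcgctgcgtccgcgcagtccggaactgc

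Ccnb2, chr8:79981609-79981908, minus strand: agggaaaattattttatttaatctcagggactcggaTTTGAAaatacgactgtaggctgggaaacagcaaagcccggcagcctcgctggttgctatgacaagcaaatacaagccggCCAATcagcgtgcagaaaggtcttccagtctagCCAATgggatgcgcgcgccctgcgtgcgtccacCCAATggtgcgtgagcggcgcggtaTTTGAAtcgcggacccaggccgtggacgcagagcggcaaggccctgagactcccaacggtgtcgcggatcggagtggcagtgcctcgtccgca

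Ccnb1, chr2:33655176-33655475, minus strand: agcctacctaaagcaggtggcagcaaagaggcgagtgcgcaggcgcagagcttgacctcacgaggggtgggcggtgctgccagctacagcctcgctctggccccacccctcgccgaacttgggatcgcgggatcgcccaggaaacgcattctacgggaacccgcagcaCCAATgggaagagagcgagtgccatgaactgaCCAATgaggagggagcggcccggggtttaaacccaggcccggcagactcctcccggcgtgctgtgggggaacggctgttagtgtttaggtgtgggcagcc

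The Mki67 and Top2a windows each held 2 CHR and 4 CCAAT matches, Cdk1 held 2 and 3, Ccnb2 held 2 and 3, and Ccnb1 held 2 CCAAT and no CHR match. Of the 32 matched genes, 23 (71.9%) had a CHR match, against 19.7% of all 33469 RefSeq windows of the same length. CCAAT was found in 23 (71.9%), against 37.5% of all windows, and both motifs were found in 18 (56.2%), against 7.95%. At least 2 CCAAT matches were found in 17 (53.1%), against 11.2%. In Ccnb2, Ccnb1 and Cdk1 a pair of CCAAT boxes on 1 strand stood 31 to 35 bases apart, a spacing looked at after the sequences had been seen, which 5 of 32 genes (15.6%) and 0.795% of all windows showed. Letters of 4 E2F sites (TTTCCCGC, TTTCGCGC, TTTGCCGC and TTTGGCGC, either strand) were in 1 of 32 genes (3.12%) and in 2.14% of all windows. A match describes these letters and says nothing of binding in these livers.

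The cyclins and their kinase fell in both arms, 4 of 4 genes between day 1 and day 14, with a median log2 difference of -2.90 in metformin livers and -3.39 in control livers. Cdk1 encodes the kinase that drives entry into mitosis. On day 1, Cdk1 read 8.18, 7.22, 6.26 and 7.13 in metformin livers, against 7.02, 6.82, 7.63 and 7.23 in control livers (log2 intensity, 1 value per rat). On day 3, Cdk1 read 6.56, 6.85, 7.67 and 7.08 in metformin livers, against 6.35, 6.82, 6.72 and 7.03 in control livers. On day 14, Cdk1 read 4.71, 5.11, 5.37 and 5.32 in metformin livers, against 5.03, 4.94, 5.04 and 5.002 in control livers. The 8 values of day 14 spanned 4.71 to 5.37, and the lowest earlier value was 6.26. Cdk1 fell between day 1 and day 14, with a log2 difference of -2.07 ± 0.28 in metformin livers (4.2-fold lower, adjusted p = 8.08e-05) and -2.17 ± 0.28 in control livers (4.5-fold lower, adjusted p = 0.000144).

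Ccnb1 encodes cyclin B1, the partner of CDK1 that is destroyed at anaphase. On day 1, Ccnb1 read 10.13, 8.31, 7.26 and 8.47 in metformin livers, against 8.91, 7.66, 9.19 and 9.34 in control livers (log2 intensity, 1 value per rat). On day 3, Ccnb1 read 7.88, 8.06, 10.13 and 8.87 in metformin livers, against 7.81, 7.99, 8.44 and 8.48 in control livers. On day 14, Ccnb1 read 5.20, 5.60, 5.98 and 6.02 in metformin livers, against 6.05, 4.45, 5.33 and 5.29 in control livers. The day 14 values lay below every earlier value in both arms, and the spread among the metformin rats of days 1 and 3 was wider than among the day 14 rats. Ccnb1 fell between day 1 and day 14, with a log2 difference of -2.84 ± 0.51 in metformin livers (7.18-fold lower, adjusted p = 0.00075) and -3.49 ± 0.51 in control livers (11.2-fold lower, adjusted p = 0.000323). Ccna2, which encodes cyclin A2 of S phase and early mitosis, fell, with log2 differences of -3.38 ± 0.50 in metformin livers and -3.96 ± 0.50 in control livers. Ccnb2, which encodes cyclin B2, fell, with log2 differences of -2.95 ± 0.57 in metformin livers and -3.28 ± 0.57 in control livers. Its brightest probe set carries a chromosome 1 identifier, whereas RefSeq places Ccnb2 on chromosome 8 and a pseudogene, Ccnb2-ps2, on chromosome 1, so that value is uncertain. The chromosome 8 probe set, read as an alternative chosen after seeing the data, fell, with log2 differences of -2.33 ± 0.47 in metformin livers (adjusted p = 0.00172) and -2.53 ± 0.47 in control livers (adjusted p = 0.00315).

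All 3 mitotic kinases fell between day 1 and day 14, with a median log2 difference of -1.13 in metformin livers and -1.30 in control livers, and a wide range among them. Plk1 encodes a kinase of centrosome maturation, spindle assembly and cytokinesis. On day 1, Plk1 read 10.27, 8.71, 7.71 and 9.45 in metformin livers, against 9.16, 8.16, 9.71 and 9.33 in control livers (log2 intensity, 1 value per rat). On day 3, Plk1 read 8.09, 8.58, 9.57 and 8.78 in metformin livers, against 7.97, 7.997, 8.34 and 9.05 in control livers. On day 14, Plk1 read 5.03, 5.88, 6.28 and 6.06 in metformin livers, against 6.26, 5.54, 5.62 and 5.80 in control livers. Every day 14 value was below every earlier one, by more than 1 log2 unit between the nearest rats. Plk1 fell between day 1 and day 14, with a log2 difference of -3.22 ± 0.43 in metformin livers (9.34-fold lower, adjusted p = 7.31e-05) and -3.28 ± 0.43 in control livers (9.74-fold lower, adjusted p = 0.00016). Aurka, which encodes Aurora A of the spindle poles, fell, with log2 differences of -1.13 ± 0.18 in metformin livers and -1.30 ± 0.18 in control livers. Melk, a kinase gene of proliferating cells, fell, with log2 differences of -0.73 ± 0.15 in metformin livers and -0.80 ± 0.15 in control livers. Its difference against day 3 in control livers was -0.59 ± 0.15 (adjusted p = 0.0689), outside the call, though it was called in 7 of the alternatives run (adjusted p 0.0128 to 0.0490).

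The 3 measured genes of the chromosomal passenger complex, which corrects faulty chromosome attachments and later guides cytokinesis, fell between day 1 and day 14, with a median log2 difference of -1.85 in metformin livers and -1.97 in control livers. Birc5 encodes survivin, which places the complex on the chromosomes. On day 1, Birc5 read 7.85, 7.37, 6.59 and 7.24 in metformin livers, against 7.54, 7.02, 7.67 and 7.68 in control livers (log2 intensity, 1 value per rat). On day 3, Birc5 read 6.71, 7.12, 8.16 and 7.50 in metformin livers, against 6.81, 6.71, 6.99 and 7.20 in control livers. On day 14, Birc5 read 4.95, 5.45, 5.73 and 5.53 in metformin livers, against 5.75, 5.36, 5.26 and 5.68 in control livers. All 8 day 14 values lay between 4.95 and 5.75, below the lowest earlier value of 6.59. Birc5 fell between day 1 and day 14, with a log2 difference of -1.85 ± 0.26 in metformin livers (3.6-fold lower, adjusted p = 0.000113) and -1.97 ± 0.26 in control livers (3.91-fold lower, adjusted p = 0.000164). Aurkb encodes Aurora B, the kinase of the complex. On day 1, Aurkb read 7.92, 6.70, 5.85 and 7.16 in metformin livers, against 6.61, 6.19, 7.27 and 7.30 in control livers (log2 intensity, 1 value per rat). On day 3, Aurkb read 5.89, 6.36, 7.40 and 6.61 in metformin livers, against 6.05, 6.14, 6.51 and 6.61 in control livers. On day 14, Aurkb read 4.53, 4.90, 5.01 and 4.70 in metformin livers, against 4.78, 4.68, 4.74 and 5.11 in control livers. The day 14 values reached 5.11 at most and the earlier ones 5.85 at least. Aurkb fell between day 1 and day 14, with a log2 difference of -2.12 ± 0.34 in metformin livers (4.35-fold lower, adjusted p = 0.000268) and -2.02 ± 0.34 in control livers (4.05-fold lower, adjusted p = 0.00121). Against day 3 in control livers the difference was -1.50 ± 0.34 (adjusted p = 0.0308), and the call was lost when any of 7 of the 8 arrays compared was left out (adjusted p 0.0547 to 0.105). Cdca8, which encodes borealin, fell, with log2 differences of -0.67 ± 0.12 in metformin livers (adjusted p = 0.000621) and -0.59 ± 0.12 in control livers (adjusted p = 0.00701). Its difference against day 3 in control livers was -0.49 ± 0.12 (adjusted p = 0.0469), and this call was lost in 18 of the 24 fits that left out 1 array.

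All 7 kinetochore and spindle checkpoint genes fell between day 1 and day 14, with a median log2 difference of -1.90 in metformin livers and -2.23 in control livers. Bub1, a checkpoint kinase gene, had the smallest p of the 38 genes in metformin livers. On day 1, Bub1 read 8.92, 8.05, 6.92 and 7.99 in metformin livers, against 8.06, 7.56, 8.46 and 8.10 in control livers (log2 intensity, 1 value per rat). On day 3, Bub1 read 7.39, 7.60, 8.64 and 7.87 in metformin livers, against 6.94, 7.41, 7.32 and 7.80 in control livers. On day 14, Bub1 read 4.95, 5.44, 5.56 and 5.79 in metformin livers, against 5.54, 4.94, 5.40 and 5.52 in control livers. The highest day 14 value was 5.79 and the lowest earlier value 6.92. Bub1 fell between day 1 and day 14, with a log2 difference of -2.54 ± 0.32 in metformin livers (5.8-fold lower, adjusted p = 3.77e-05) and -2.70 ± 0.32 in control livers (6.48-fold lower, adjusted p = 7.04e-05). Ttk, which encodes the checkpoint kinase MPS1, fell, with log2 differences of -2.28 ± 0.36 in metformin livers and -2.45 ± 0.36 in control livers. Ndc80 and Nuf2, subunits of the complex that grips microtubules, fell, with log2 differences of -1.88 ± 0.29 and -1.90 ± 0.35 in metformin livers, and -2.12 ± 0.29 and -2.44 ± 0.35 in control livers. The kinesin gene Cenpe and its kinetochore partner Cenpf fell, with log2 differences of -1.90 ± 0.32 and -2.04 ± 0.34 in metformin livers, and -2.23 ± 0.32 and -2.17 ± 0.34 in control livers. Bub1b, which encodes the anaphase inhibitor BUBR1, fell, with log2 differences of -0.98 ± 0.19 in metformin livers and -1.09 ± 0.19 in control livers. Its difference against day 3 was -0.90 ± 0.19 (adjusted p = 0.00731) in metformin livers and -0.76 ± 0.19 (adjusted p = 0.0577) in control livers.

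The 8 kinesin, spindle and microtubule genes fell between day 1 and day 14, with a median log2 difference of -2.28 in metformin livers and -2.56 in control livers. Ckap2, which encodes a microtubule-stabilising spindle protein, was among the 3 largest falls of the 38 genes in both arms. On day 1, Ckap2 read 10.73, 8.74, 7.17 and 8.64 in metformin livers, against 8.91, 8.60, 9.44 and 9.28 in control livers (log2 intensity, 1 value per rat). On day 3, Ckap2 read 8.34, 8.20, 10.61 and 8.99 in metformin livers, against 8.33, 8.70, 8.87 and 8.82 in control livers. On day 14, Ckap2 read 4.81, 5.52, 5.27 and 5.83 in metformin livers, against 5.55, 4.86, 4.97 and 4.87 in control livers. The day 14 values lay between 4.81 and 5.83, and the earlier ones between 7.17 and 10.73. Ckap2 fell between day 1 and day 14, with a log2 difference of -3.46 ± 0.52 in metformin livers (11-fold lower, adjusted p = 0.000179) and -3.99 ± 0.52 in control livers (15.9-fold lower, adjusted p = 0.000144). Kif11 encodes Eg5, the motor that pushes spindle poles apart. On day 1, Kif11 read 9.13, 7.85, 6.96 and 7.85 in metformin livers, against 8.03, 7.73, 8.52 and 8.43 in control livers (log2 intensity, 1 value per rat). On day 3, Kif11 read 7.52, 7.91, 8.82 and 8.14 in metformin livers, against 7.40, 7.78, 7.75 and 7.87 in control livers. On day 14, Kif11 read 5.60, 6.04, 5.95 and 5.74 in metformin livers, against 6.04, 5.49, 5.72 and 5.70 in control livers. No rat of day 14 overlapped any earlier rat. Kif11 fell between day 1 and day 14, with a log2 difference of -2.11 ± 0.31 in metformin livers (4.33-fold lower, adjusted p = 0.000154) and -2.44 ± 0.31 in control livers (5.42-fold lower, adjusted p = 0.000139). Hmmr, which encodes a hyaluronan receptor that also binds spindle microtubules, fell, with log2 differences of -2.57 ± 0.43 in metformin livers and -3.21 ± 0.43 in control livers. Tpx2, the activator of Aurora A, fell, with log2 differences of -2.50 ± 0.38 in metformin livers and -2.68 ± 0.38 in control livers. Nusap1 and Aspm, genes of spindle organisation, fell, with log2 differences of -2.44 ± 0.36 and -1.91 ± 0.30 in metformin livers, and -2.75 ± 0.36 and -2.17 ± 0.30 in control livers. The motor genes Kif2c and Kif4a fell, with log2 differences of -1.51 ± 0.26 and -1.27 ± 0.24 in metformin livers, and -1.79 ± 0.26 and -1.58 ± 0.24 in control livers.

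All 7 cytokinesis genes fell between day 1 and day 14, with a median log2 difference of -1.84 in metformin livers and -1.99 in control livers. Ect2 encodes the exchange factor that activates RhoA at the division furrow. On day 1, Ect2 read 10.41, 9.07, 7.76 and 9.17 in metformin livers, against 9.15, 8.46, 9.86 and 9.51 in control livers (log2 intensity, 1 value per rat). On day 3, Ect2 read 8.24, 8.63, 10.14 and 8.90 in metformin livers, against 8.29, 8.57, 8.59 and 9.18 in control livers. On day 14, Ect2 read 4.95, 5.92, 6.07 and 6.07 in metformin livers, against 6.11, 4.89, 5.44 and 5.56 in control livers. The lowest earlier value was 7.76 and the highest day 14 value 6.11. Ect2 fell between day 1 and day 14, with a log2 difference of -3.35 ± 0.45 in metformin livers (10.2-fold lower, adjusted p = 7.31e-05) and -3.74 ± 0.45 in control livers (13.4-fold lower, adjusted p = 7.41e-05). Kif20a, a motor gene of the central spindle, fell, with log2 differences of -3.05 ± 0.50 in metformin livers and -3.33 ± 0.50 in control livers. Prc1, which encodes the cross-linker of the central spindle, fell, with log2 differences of -2.40 ± 0.37 in metformin livers and -2.75 ± 0.37 in control livers. Racgap1 and Kif23, which together encode the centralspindlin complex, fell, with log2 differences of -1.84 ± 0.28 and -1.12 ± 0.22 in metformin livers, and -1.99 ± 0.28 and -1.53 ± 0.22 in control livers. Anln, which encodes the furrow scaffold anillin, fell, with log2 differences of -1.45 ± 0.23 in metformin livers and -1.63 ± 0.23 in control livers. Cep55, a gene of the final cut between daughter cells, fell, with log2 differences of -1.13 ± 0.23 in metformin livers and -1.21 ± 0.23 in control livers. Its difference against day 3 in control livers was -0.90 ± 0.23 (adjusted p = 0.0734).

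The 3 partners of the anaphase-promoting complex and of mitotic exit fell between day 1 and day 14, with a median log2 difference of -1.81 in metformin livers and -1.79 in control livers. Cdc20 encodes the activator that points the complex at cyclin B. On day 1, Cdc20 read 8.69, 7.64, 6.71 and 7.61 in metformin livers, against 7.64, 7.08, 8.50 and 8.17 in control livers (log2 intensity, 1 value per rat). On day 3, Cdc20 read 6.96, 7.31, 8.35 and 7.89 in metformin livers, against 6.80, 7.52, 7.29 and 7.84 in control livers. On day 14, Cdc20 read 4.94, 5.75, 5.99 and 5.69 in metformin livers, against 5.66, 4.84, 5.37 and 5.14 in control livers. The day 14 values ended at 5.99, below the lowest earlier value of 6.71. Cdc20 fell between day 1 and day 14, with a log2 difference of -2.07 ± 0.37 in metformin livers (4.2-fold lower, adjusted p = 0.000733) and -2.59 ± 0.37 in control livers (6.04-fold lower, adjusted p = 0.000285). Ube2c, which encodes a ubiquitin-conjugating enzyme of the complex, fell, with log2 differences of -1.81 ± 0.33 in metformin livers and -1.79 ± 0.33 in control livers. Cdca3, a gene that promotes destruction of the mitotic inhibitor WEE1, fell, with log2 differences of -1.58 ± 0.22 in metformin livers and -1.37 ± 0.22 in control livers.

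Among the 38 genes, Mki67 and Top2a had the largest falls between day 1 and day 14 in both arms, and Foxm1 had the smallest in metformin livers and the second smallest in control livers. Their starting levels differed, with day 1 means in metformin and control livers of 11.19 and 11.33 for Mki67, against 5.82 and 5.84 for Foxm1. A gene that starts dim has little room to fall on this scale, so the sizes of the falls do not rank the genes by response. Mki67 encodes Ki-67, the coat protein of mitotic chromosomes used to count cycling cells. On day 1, Mki67 read 12.68, 11.15, 9.72 and 11.23 in metformin livers, against 11.19, 10.29, 11.74 and 12.09 in control livers (log2 intensity, 1 value per rat). On day 3, Mki67 read 10.20, 10.87, 12.21 and 11.06 in metformin livers, against 9.90, 10.53, 10.64 and 11.04 in control livers. On day 14, Mki67 read 5.64, 7.44, 7.59 and 7.55 in metformin livers, against 7.41, 5.57, 6.36 and 6.67 in control livers. Every rat of days 1 and 3 read 9.72 or more, and every rat of day 14 read 7.59 or less. Mki67 fell between day 1 and day 14, with a log2 difference of -4.14 ± 0.56 in metformin livers (17.6-fold lower, adjusted p = 7.5e-05) and -4.83 ± 0.56 in control livers (28.4-fold lower, adjusted p = 7.04e-05). Against day 3, the difference was -4.03 ± 0.56 in metformin livers (adjusted p = 0.000562) and -4.03 ± 0.56 in control livers (adjusted p = 0.0015).

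Top2a encodes the topoisomerase that untangles sister chromatids. On day 1, Top2a read 11.33, 9.54, 8.42 and 9.74 in metformin livers, against 9.97, 9.38, 10.78 and 10.28 in control livers (log2 intensity, 1 value per rat). On day 3, Top2a read 8.87, 9.57, 10.54 and 9.82 in metformin livers, against 8.95, 9.10, 9.35 and 10.01 in control livers. On day 14, Top2a read 5.35, 6.46, 6.61 and 6.52 in metformin livers, against 6.46, 5.11, 5.998 and 5.997 in control livers. The gap between the nearest rats of day 14 and of the earlier days ran from 6.61 to 8.42. Top2a fell between day 1 and day 14, with a log2 difference of -3.52 ± 0.47 in metformin livers (11.5-fold lower, adjusted p = 6.76e-05) and -4.21 ± 0.47 in control livers (18.5-fold lower, adjusted p = 5.67e-05). Against day 3, the difference was -3.46 ± 0.47 in metformin livers (adjusted p = 0.000559) and -3.46 ± 0.47 in control livers (adjusted p = 0.0015).

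Foxm1 encodes a transcription factor that activates late cell cycle genes in human and mouse cells. On day 1, Foxm1 read 6.37, 5.74, 5.36 and 5.82 in metformin livers, against 5.87, 5.61, 5.98 and 5.90 in control livers (log2 intensity, 1 value per rat). On day 3, Foxm1 read 5.45, 5.57, 5.94 and 5.70 in metformin livers, against 5.40, 5.56, 5.57 and 5.82 in control livers. On day 14, Foxm1 read 5.17, 5.22, 5.24 and 5.18 in metformin livers, against 5.17, 5.15, 5.23 and 5.14 in control livers. The day 14 values lay between 5.14 and 5.24 and did not overlap the earlier ones, the lowest of which was 5.36. Foxm1 fell between day 1 and day 14, with a log2 difference of -0.62 ± 0.15 in metformin livers (1.53-fold lower, adjusted p = 0.0063) and -0.67 ± 0.15 in control livers (1.59-fold lower, adjusted p = 0.0136). The call in control livers was lost without replicate 3 of the day 1 controls (adjusted p = 0.0569), and the call in metformin livers was lost when only those 8 arrays were fitted (adjusted p = 0.0653). Against day 3 the difference was -0.46 ± 0.15 (adjusted p = 0.0559) in metformin livers and -0.42 ± 0.15 (adjusted p = 0.257) in control livers, neither called. The difference in metformin livers was called in 6 of the alternatives run (adjusted p 0.0144 to 0.0489).

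**Figure D2:**
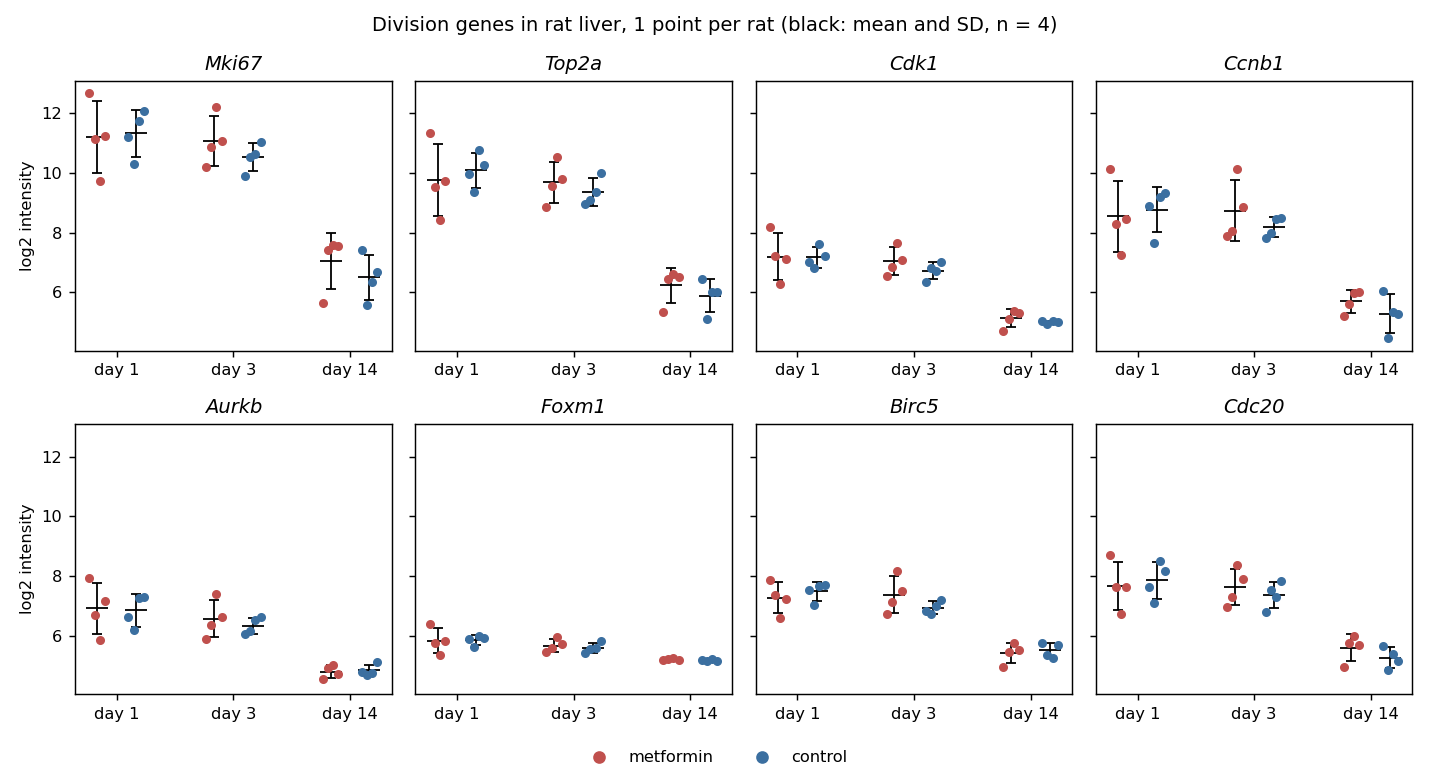
Log2 intensity (vertical axis) of 8 division genes on day 1, day 3 and day 14 (horizontal axis), with 1 point per rat, metformin in red and control in blue; black marks give the mean and SD of 4 rats. In each panel all 8 points of day 14 lie below all 16 points of the earlier days.

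**Figure D3:**
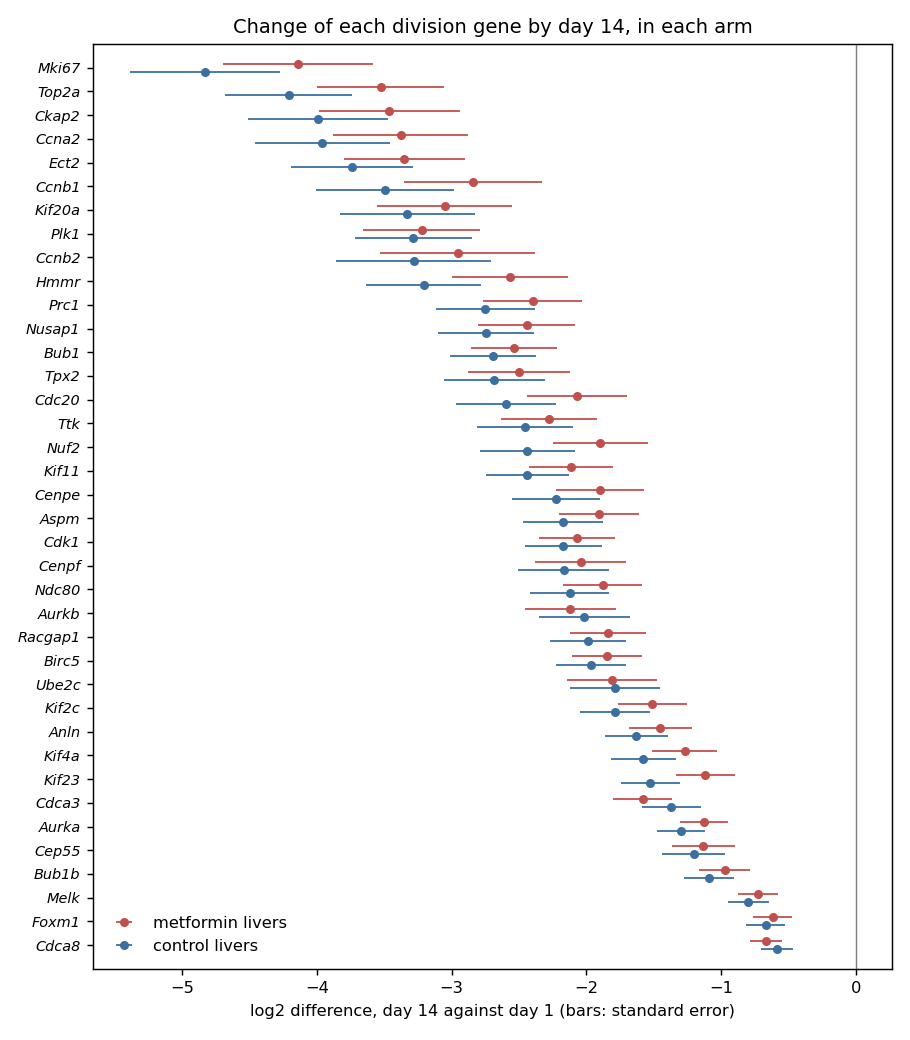
Log2 difference of day 14 against day 1 (horizontal axis) for each of the 38 genes (vertical axis), with metformin livers in red above control livers in blue; bars are standard errors of the model. All 76 estimates lie below 0, from -4.83 for Mki67 in control livers to -0.59 for Cdca8 in control livers.

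Between day 1 and day 3 no gene of the set was called in either arm. In metformin livers 17 of 38 genes were higher and 21 lower on day 3, where 58.8% of all tested genes were lower, with a median log2 difference of -0.04, and 0 were called, against a background of 1.8%. None had an unadjusted p under 0.05, against 17.3% of all tested genes. In control livers 38 of 38 were lower, against 46.9% of all tested genes, with a median of -0.47, and 0 were called by limma, as were 0% of all tested genes. There, 3 genes had an unadjusted p under 0.05 (Aurka, Bub1 and Birc5), against a background of 4.71%. With both arms averaged, 38 of 38 were lower on day 3, against 54.9% of all tested genes, with a median of -0.21 and 0 were called, against a background of 0.102%. There Aurka alone had an unadjusted p under 0.05, 1 of 38 genes against 11.9% of all tested genes, and without replicate 1 of the metformin rats of day 1 the median was -0.062 with 10 of 38 genes above 0. In metformin livers the median moved to 0.32 without replicate 1 of day 1 and to -0.29 without replicate 3 of day 1, so the direction there rested on single rats. With both arms averaged, 38 of 38 genes were called lower on day 14 against day 3 (background 5.39%) and 38 of 38 against day 1 (background 6.7%).

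No gene of the set was called between metformin and control livers on any day. On day 1, 5 genes were higher and 33 lower in metformin livers, with a median log2 difference of -0.15, and 0 were called, against a background of 0.0152%. On that day 55.6% of all tested genes lay above 0. On day 3, 38 of 38 were higher in metformin livers with a median of 0.36, while 42.7% of all tested genes lay above 0, and 0 were called, against a background of 0.254%. The same control livers of day 3 enter the comparison of day 3 with day 1 in control livers. They also enter the difference of the metformin effect between those days, so these patterns are not separate observations. On day 14, 33 were higher and 5 lower with a median of 0.10, while 52.7% of all tested genes lay above 0, and 0 were called, against a background of 3.29%. At an unadjusted p under 0.05 there were 0 of 38 on each day, against 8.22% (day 1), 13.6% (day 3) and 16.8% (day 14) over the whole array.

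The intervals were wide, and an absent call does not show that the arms were alike. On day 1 Hmmr differed by -0.39 (95% interval -1.28 to 0.50), Top2a by -0.34 (95% interval -1.32 to 0.64) and Ccnb2 by -0.27 (95% interval -1.46 to 0.93), the 3 lowest estimates. The 3 highest on day 1 were Cdca8 at 0.10 (95% interval -0.15 to 0.34), Cdca3 at 0.09 (95% interval -0.36 to 0.54) and Aurkb at 0.06 (95% interval -0.64 to 0.76). On day 3 the highest estimates were Ccnb2 at 0.59 (95% interval -0.61 to 1.78), Mki67 at 0.56 (95% interval -0.61 to 1.72) and Ccnb1 at 0.55 (95% interval -0.51 to 1.62). The chromosome 8 probe set of Ccnb2 differed by -0.15 ± 0.47 on day 1 and by 0.50 ± 0.47 on day 3. The place of Ccnb2 among these estimates is therefore uncertain. The lowest on day 3 were Kif2c at 0.03 (95% interval -0.50 to 0.56), Foxm1 at 0.08 (95% interval -0.23 to 0.38) and Cdca8 at 0.08 (95% interval -0.16 to 0.33). On day 14 Mki67 differed by 0.55 (95% interval -0.61 to 1.72), Ccnb1 by 0.42 (95% interval -0.64 to 1.48) and Ccna2 by 0.39 (95% interval -0.65 to 1.44). The lowest on day 14 were Cenpf at -0.12 (95% interval -0.83 to 0.58), Cdca3 at -0.12 (95% interval -0.57 to 0.34) and Birc5 at -0.09 (95% interval -0.64 to 0.45). The interval contained 0 for all 38 genes on all 3 days. It excluded a doubling in metformin livers (a log2 difference of 1) in 37 genes (day 1), 18 genes (day 3) and 27 genes (day 14). It lay above a log2 difference of -1 in 29 genes (day 1), 38 genes (day 3) and 37 genes (day 14).

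Single rats carried much of these medians. Without replicate 3 of the metformin rats of day 3 the median on that day was 0.08 and 31 of 38 genes lay above 0. On day 1 the median was 0.20, with 35 of 38 above 0, without replicate 3 of the metformin rats, and -0.50 without their replicate 1. On day 14 it ranged from 0.04, without replicate 4 of the metformin rats, to 0.23 without their replicate 1. The effect of metformin did not pass a test of its difference between days in any of the 38 genes. The day 3 effect minus the day 1 effect had a median of 0.50 over the 38 genes and 0 calls (background 0%, with 10.7% of all genes and 0 of the 38 at an unadjusted p under 0.05). The day 14 effect minus the day 1 effect had a median of 0.25 and 0 calls (background 1.66%, unadjusted 0 of 38 against 14.1%). The day 14 effect minus the day 3 effect had a median of -0.21 and 0 calls (background 0.00508%, unadjusted 0 of 38 against 7.54%). Averaged over the 3 days, the metformin effect had a median of 0.11 and 0 calls, against a background of 3.23%, with 0 of 38 genes at an unadjusted p under 0.05, against 15.9% of all tested genes. Its intervals reached 0.995 at most. The medians of 3 of these comparisons changed sign when 1 rat was left out. The averaged effect had a median of -0.013 without replicate 1 of the metformin rats of day 1. The day 14 effect minus the day 1 effect had a median of -0.059 without replicate 3 of the metformin rats of day 1, and the day 14 effect minus the day 3 effect had a median of 0.022 without replicate 3 of those of day 3.

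**Figure D4:**
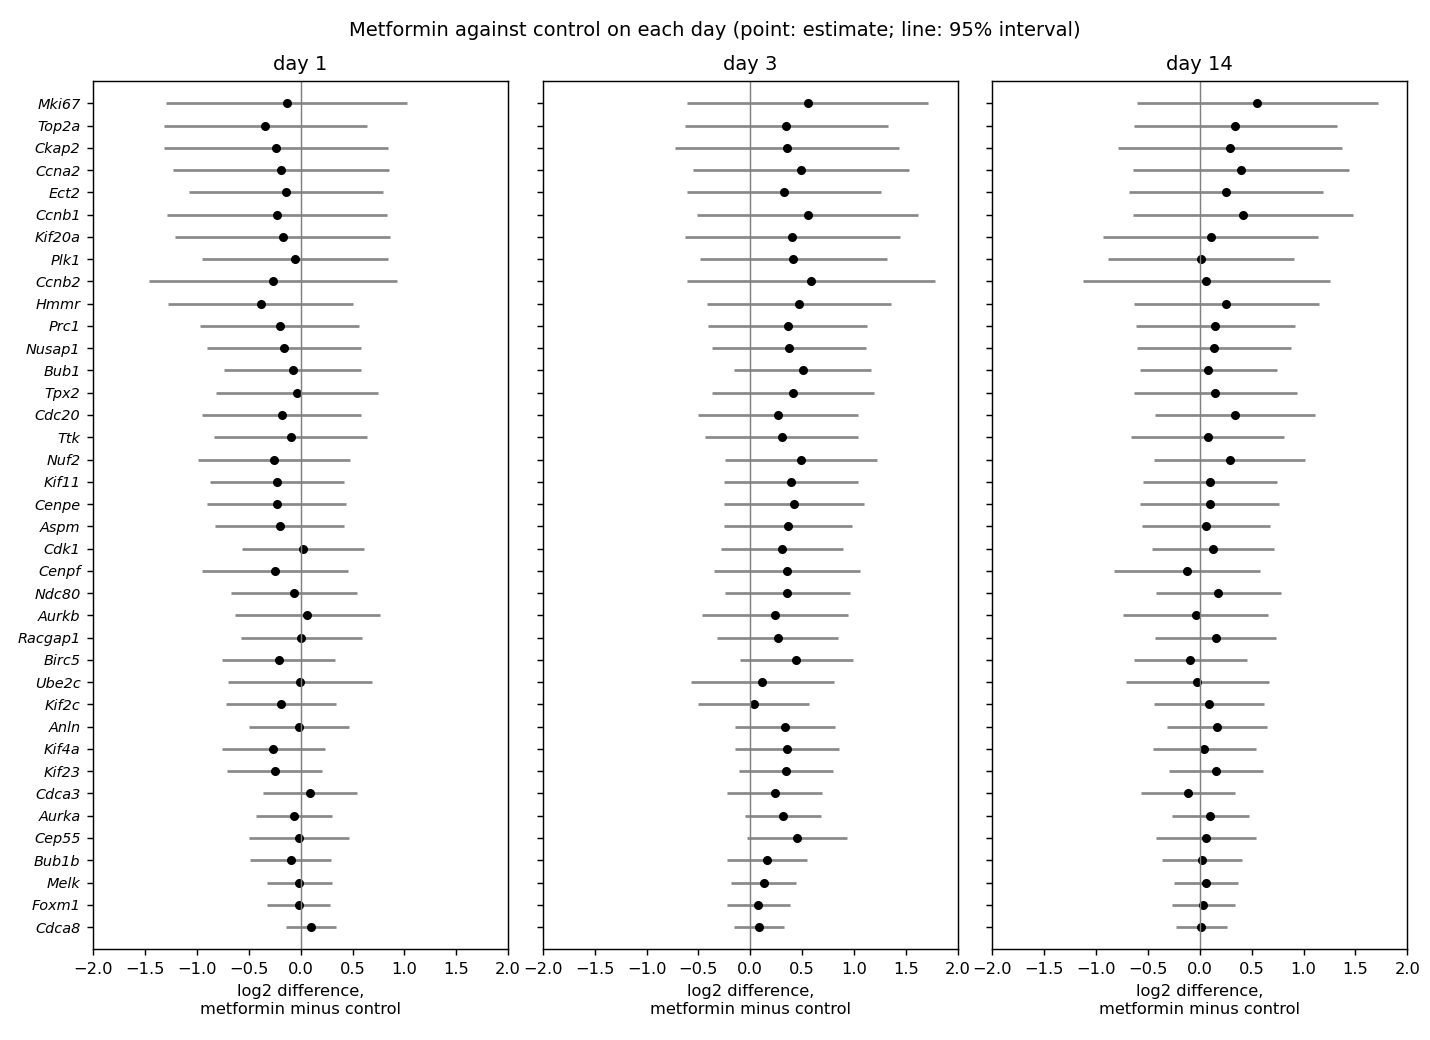
Log2 difference of metformin minus control (horizontal axis) for each of the 38 genes (vertical axis) on day 1, day 3 and day 14; points are estimates and lines are 95% intervals. Every interval crosses 0, and the 38 estimates of day 3 all lie right of 0.

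Within groups the 38 genes moved together from rat to rat. Among the metformin rats of day 1, replicate 1 was the highest of 4 in 38 of 38 genes and replicate 3 the lowest in 38 of 38, where over all tested genes these rats were highest in 20.4% and lowest in 23.9%. Among the metformin rats of day 3, replicate 3 was the highest in 37 genes and replicate 1 the lowest in 36. On day 14, replicate 1 of the metformin rats was the lowest in 35. Among control rats, replicate 2 of day 1 was the lowest in 37, replicate 4 of day 3 the highest in 37 and replicate 1 of day 3 the lowest in 35. On day 14, replicate 1 of the control rats was the highest in 29 and replicate 2 the lowest in 29. The rats named in groups other than the metformin rats of day 1 took these places in 17.8% to 32.4% of all tested genes. The genes are therefore not 38 independent measurements of a group.

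The median SD within groups over the 38 genes was 0.50 on the log2 scale, against 0.17 over all tested genes. By group, the median SD over the 38 genes on day 1 was 0.81 in metformin livers and 0.42 in control livers. It was 0.62 in metformin livers and 0.28 in control livers on day 3, and 0.32 in metformin livers and 0.24 in control livers on day 14. Summarised by the median over the 38 genes, the metformin rats of day 1 read 8.37, 7.43, 6.57 and 7.53, against 7.56, 7.05, 7.90 and 7.75 in control rats. On day 3 the metformin rats read 6.92, 7.24, 8.16 and 7.51, against 6.88, 7.03, 7.19 and 7.46 in control rats. On day 14 they read 5.05, 5.49, 5.59 and 5.69, against 5.59, 5.06, 5.30 and 5.32 in control rats. The arms overlapped on each day, and the highest rat of day 14, at 5.69, lay below the lowest rat of the earlier days, at 6.57.

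Kupffer cell and macrophage markers also differed between these rats, in no constant direction relative to the division genes. The summed level of 14 Kupffer cell and macrophage markers was 13.86 in replicate 3 of the metformin rats of day 1, the lowest rat for the division genes there, and 14.81 to 14.99 in the other 3. It was 13.68 in replicate 3 of the metformin rats of day 3, the highest rat for the division genes there, against 14.02 to 14.83 in the others. It was 13.31 in replicate 2 of the control rats of day 14, against 14.63 to 14.68 in the others. In the remaining groups the lowest rat for the division genes took different places. Replicate 2 of the control rats of day 1 read 14.65, against 14.23 to 14.77 in the others. Replicate 1 of the control rats of day 3 read 15.26, against 14.24 to 14.82. Replicate 1 of the metformin rats of day 14 read 13.88, against 14.19 to 14.33. The part of these markers in the division genes' levels was not tested.

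Other genes of division were lower on day 14 as well. Of 66 further genes of mitosis 63 were tested, and 54 were called lower in metformin livers and 51 in control livers between day 1 and day 14. The shares of all tested genes called lower were 8.81% and 1.56%. The median log2 difference over the 63 genes was -1.07 in each arm. Ncapg, a condensin subunit gene, fell, with log2 differences of -2.72 ± 0.34 in metformin livers and -2.84 ± 0.34 in control livers. Stmn1, which encodes the microtubule destabiliser stathmin, fell, with log2 differences of -1.71 ± 0.23 in metformin livers and -1.81 ± 0.23 in control livers. Mastl, the Greatwall kinase gene, fell, with log2 differences of -2.32 ± 0.36 in metformin livers and -2.65 ± 0.36 in control livers. Against day 3, 49 of 63 were called lower in metformin livers and 27 of 63 in control livers. There, 3.98% and 0.757% of all tested genes were called lower. The rat with the highest and the rat with the lowest median over the 63 genes was the same as for the 38 genes in 6 of 6 groups.

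Genes of DNA replication were called lower in part. Of 43 tested, 29 were called lower in metformin livers and 19 in control livers between day 1 and day 14. The shares of all tested genes called lower were 8.81% and 1.56%. The median over the 43 genes was -0.56 in metformin livers and -0.38 in control livers. The helicase genes Mcm3 and Mcm6 fell, with log2 differences of -0.88 ± 0.08 and -1.29 ± 0.14 in metformin livers, and -0.73 ± 0.08 and -1.28 ± 0.14 in control livers. Rrm2, a subunit gene of ribonucleotide reductase, fell, with log2 differences of -4.25 ± 0.69 in metformin livers and -5.95 ± 0.69 in control livers. Tk1, the thymidine kinase gene of S phase, fell, with log2 differences of -2.48 ± 0.33 in metformin livers and -2.26 ± 0.33 in control livers. Against day 3, 21 of 43 were called lower in metformin livers and 9 of 43 in control livers. There, 3.98% and 0.757% of all tested genes were called lower.

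Of 26 tested brakes and repressors of the cycle, 9 were called lower and 0 higher in metformin livers between day 1 and day 14, against 8.81% and 5.13% of all tested genes. In control livers 4 were called lower and 0 higher, against 1.56% and 0.259%, with a median of -0.23 in metformin livers and -0.09 in control livers. Cdkn2c, which encodes the CDK inhibitor p18, fell, with log2 differences of -0.85 ± 0.11 in metformin livers and -0.79 ± 0.11 in control livers. Rbl1, which encodes the pocket protein p107, fell, with log2 differences of -1.51 ± 0.23 in metformin livers and -1.28 ± 0.23 in control livers. Lin9, a MuvB subunit gene, fell, with log2 differences of -0.81 ± 0.14 in metformin livers and -0.60 ± 0.14 in control livers. Wee1, which encodes the kinase that holds CDK1 inactive, fell by 0.84 ± 0.14 in each arm. Cdkn1a, which encodes the CDK inhibitor p21, was called lower in metformin livers, at -1.62 ± 0.37 (adjusted p = 0.00514), and differed by -1.09 ± 0.37 in control livers (adjusted p = 0.204), outside the call. Whether the 2 differences of Cdkn1a differ from each other was tested as the change of the metformin effect between day 1 and day 14, which was -0.54 ± 0.53 (adjusted p = 0.736).

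Between day 1 and day 14, 11 of 76 tested markers of liver cell types (14.5%) were called in metformin livers, against 13.9% of all tested genes, and 1 of 76 (1.32%) in control livers, against 1.82% of all tested genes. In control livers 1 of 11 hepatocyte markers was called (Apoa1, -0.61) and none of the other 7 marker lists held a call. In metformin livers Apoa1 was called (-0.68), and 5 of 10 stellate cell and fibroblast markers were called lower (Reln, Ecm1, Col3a1, Col1a2 and Lrat), with a median of -0.58 over the list. Of 14 Kupffer cell and macrophage markers, Cd68 (-1.08) and Cd163 (-0.95) were called lower and Lyz2 (0.62) higher. Of 9 endothelial markers Pecam1 was called lower (-0.63), and of 9 erythroid markers Ahsp was called higher (0.51). The summed stellate level ranged from 12.75 to 13.24 in metformin livers of day 14 and from 13.72 to 13.91 in metformin livers of day 1, and from 12.69 to 13.72 in control livers of day 14 and from 13.32 to 13.94 in control livers of day 1. The summed Kupffer level ranged from 13.88 to 14.33 in metformin livers of day 14 and from 13.86 to 14.99 in those of day 1, and from 13.31 to 14.68 in control livers of day 14 and from 14.23 to 14.77 in those of day 1. On day 3, 14 of 14 Kupffer and 10 of 10 stellate markers were lower in metformin than in control livers, against 57.3% of all tested genes. Their medians were -0.48 and -0.19 with 0 calls, while 38 of 38 division genes had estimates above 0 on that day, also with 0 calls. The part of these cells in the division genes' levels was not tested.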

How the data were processed

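Per the submitters' processing notes, the authors made the deposited intensity values with RMA, which corrects background, equalises the arrays by quantiles and gives each probe set 1 value. The RMA version is not given in the sources used here. These linear values reach 982564 to 994415 per array, a scale that no source explains. The labels' protocols give 300 ng of total RNA from 70 mg of liver. Log2 was taken of each intensity. Of 68842 probe sets, 23446 had 1 symbol, and the brightest per gene was kept (22093 genes). Genes above 4.28 (the 30th percentile of all log2 values) in at least 4 arrays were tested, 19686 in all.

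A model with 1 mean per group over all 24 arrays was fitted with limma 3.58.1 (lmFit and eBayes, R 4.3.3), with two-sided p values adjusted by the Benjamini-Hochberg method over all tested genes. The 16 comparisons set metformin against control within days and averaged, the differences of that effect between days, and the days against each other in each arm and averaged. The p values rest on 1 spread between rats per gene, pooled over the 6 groups. By group, the median SD of the 38 genes ran from 0.24 (control livers, day 14) to 0.81 (metformin livers, day 1). The shared errors may therefore be too large for control livers and too small for metformin livers of day 1, and calls in the 2 arms share this limit. The 38 genes, the other gene lists and the rule for named genes were chosen with earlier results of these data known. Values in every array are given for Mki67, Top2a, Cdk1, Ccnb1, Aurkb, Foxm1, Birc5 and Cdc20 and for up to 4 called genes of smallest p per comparison; the 3 highest and 3 lowest differences are also named, and up to 4 called genes per further list. Of each further list only some of those genes are named here. On simulated data of 19686 genes for control livers, day 14 against day 1, 48 of 50 genes with a log2 change of -1 and 50 of 50 with -2 were recovered; genes were drawn from the whole table, whose median SD within groups is 0.17, so this may overstate recovery for the 38 genes, whose median is 0.50. Replicate numbers did not pair metformin with control rats: same-numbered rats correlated at -0.05 to 0.09 in their deviations from group means. No source used here gives scan dates or batches. Promoter windows and gene positions are from RefSeq, build GRCr8. Alternatives were other probe set choices, filters, normalizations, array weights, variance models, sample sets, the replicate block and leaving out each array.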

Additional observations from a re-analysis of the deposited data

Results flagged for a closer look

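For each of the 38 genes and 6 groups, the highest and the lowest of 4 rats were compared with the rest by the gap to the nearest rat over the group's range, and 7 of 228 groups passed Dixon's 95% critical value for 4 samples; chance flags about 1 in 20. Of these, 4 concerned replicate 1 of the metformin rats of day 14, which stood below the others. Its Mki67 read 5.64, against 7.44 to 7.59 in the other metformin rats of that day. Its Top2a read 5.35, against 6.46 to 6.61, its Ect2 read 4.95, against 5.92 to 6.07, and its Prc1 read 4.86, against 5.53 to 5.65. The same rat was the lowest of its group in 35 of 38 genes, so these 4 are not separate events. In the control rats of day 14, Cep55 read 4.52 in replicate 3, against 5.00 to 5.07, and Ckap2 read 5.55 in replicate 1, against 4.86 to 4.97. In the control rats of day 3, Melk read 5.62 in replicate 4, against 5.34 to 5.35.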

How the results depend on the processing

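The counts of called genes among the 38 stayed within 1.5 times the value given under every alternative run, including the chromosome 8 probe set of Ccnb2, and the medians moved by less than the spread between rats. Settings other than leaving out an array gave 37 to 38 calls in metformin livers of day 14 against day 1 and against day 3, 38 in control livers against day 1, and 33 to 37 against day 3. The replicate block gave 33 there in place of 34 and changed no other of these counts; the replicate numbers did not pair the rats. In control livers against day 3, Cdca8 lost its call without the filter (adjusted p = 0.0561) and with the replicate block (adjusted p = 0.0521), and the cause was not tested. Differences between the arms that were near 0 changed sign: Cdk1 on day 1 to -0.0090 with quantile normalization, -0.0047 with cyclic loess and -0.082 with array weights, Aurkb to -0.021 on day 1 and 0.0052 on day 14 with array weights, Kif2c on day 3 to -0.017 with quantile normalization, and Foxm1 on day 14 to -0.0015 with centring. Leaving out 1 array gave, on day 1, Mki67 -0.63 to 0.35, Top2a -0.86 to 0.11, Cdk1 -0.30 to 0.33, Ccnb1 -0.76 to 0.20, Aurkb -0.27 to 0.42, Foxm1 -0.20 to 0.13, Birc5 -0.41 to 0.011, Cdc20 -0.53 to 0.13, Ccnb2 -0.82 to 0.20, Cdca3 -0.11 to 0.36 and Cdca8 -0.00010 to 0.22. On day 3 it gave Aurkb -0.040 to 0.46, Foxm1 -0.014 to 0.16 and Kif2c -0.19 to 0.15, and on day 14 Aurkb -0.11 to 0.055, Birc5 -0.20 to 0.062 and Cenpf -0.23 to 0.020. None of these differences was called in any setting. With 4 rats per group, array intensities near background limit what small differences can be resolved.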

Other observations

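Between the arms, 2 of 26 brakes and repressors of the cycle were called on day 14, against 3.29% of all tested genes, and 1 of 26 brakes and 1 of 43 replication genes were called for the mean of the days, against 3.23%. On day 14, Rbl2, which encodes the pocket protein p130 of the DREAM complex, fell by 0.53 ± 0.11 on the log2 scale in metformin livers relative to control livers (adjusted p = 0.00951). On the same day Ccng2, which encodes cyclin G2, fell by 0.78 ± 0.20 (adjusted p = 0.0305). The Rbl2 effect also passed the test of its difference between day 14 and day 1, at -0.67 ± 0.15 (adjusted p = 0.0269). In that test 1.66% of all tested genes were called. The test uses the day 14 arrays again, so it is not separate support for the day 14 difference. Averaged over the 3 days, Ccng1, which encodes cyclin G1, was higher in metformin livers by 0.28 ± 0.07 (adjusted p = 0.0361) and Pola1, a subunit gene of DNA polymerase alpha, by 0.20 ± 0.05 (adjusted p = 0.0473). No further mitosis gene was called between the arms on a single day, of 63 tested. At an unadjusted p under 0.05 there were 1 on day 1, 4 on day 3 and 0 on day 14. The shares of all tested genes at that threshold were 8.22%, 13.6% and 16.8%.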
